A study of Mus musculus with 12 samples.

Results

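The peaks described here are m6A peaks that the authors placed in the 5′UTR and whose first base lies more than 50 nt from the annotated 5′ end of the transcript, so they begin beyond the stretch next to the cap. They were taken from the 3 deposited peak lists by location (5UTR) and start position alone, without use of the enrichment values. The imDC list held 554 such peaks of 10517, the maDC list 647 of 17316 and the DCreg list 395 of 13145, together 1596 of 40978 peaks. They lay on 891 transcripts, each of a different gene, and formed 1007 sites once peaks of the 3 lists were joined where the overlap reached 50% of the shorter of them.

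N6-methyladenosine was profiled by meRIP-seq in 3 stages of mouse dendritic cells, with a library of the antibody-bound RNA (IP) and one of the input RNA for each of 2 replicates per stage, 12 libraries in all. Immature cells (imDC) were grown from bone marrow of C57BL/6 mice aged 6 weeks in GM-CSF (10 ng/ml) and IL-4 (1 ng/ml) and selected on CD11c. Mature cells (maDC) were imDC given LPS at 100 ng/ml for 24 h, and regulatory cells (DCreg) were maDC kept on spleen endothelial cells for 7 days. No genetic change was made in any group, and all 3 share the GM-CSF and IL-4 culture. The bone marrow of each stage came from several mice. The study describes the replicates as biological, but the labels do not say which cultures or mice they came from, so p-values measure only the spread between these samples.

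In mRNA, m6A is written mainly by the METTL3 and METTL14 complex at adenosines in a short consensus that includes GGACT, with U for T in the RNA, and most sites lie in long exons and around the stop codon. A methylated base in the 5′UTR has been linked to translation that does not depend on the cap-binding complex, above all in stress responses. A separate mark, m6Am, sits on the first transcribed base next to the cap and is recognized by the same antibody, so a peak that begins well inside the 5′UTR is less readily ascribed to it, unless another transcript of the gene starts within the peak.

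GGACT was listed in 146 of the 554 imDC peaks (26.4%), 178 of the 647 maDC peaks (27.5%) and 97 of the 395 DCreg peaks (24.6%). The letters GGACT were searched on the transcript strand only, and the following 25-base stretches show the motif, in capitals, in the strongest sites that carried it in all 3 lists, ranked by the lowest of the 6 enrichment values. For transcripts with more than 1 motif in the peak, 1 is shown. All are from the GRCm38 (mm10) RefSeq transcripts, written as DNA, 5′ to 3′.
Fbf1: gggcccctagGGACTagggagaagc
Itpripl2: agcgcggctgGGACTgagcgggaca
Itpkb: cgggcctccgGGACTaagccgagag
Mbtps1: ggtgaccatgGGACTgaggttttct
Eif6: cagggcgagaGGACTtggggcagga
Zdhhc5: aaagagacgaGGACTgcagttaaaa
Nfe2l1: ctgagcgcctGGACTgtgttaggaa
Tbc1d4: gctgaagcacGGACTttaagaactg
St3gal2: gggctgagatGGACTgacctctgcc
Ulk1: ccggcctgtgGGACTgggacccggc

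The Fbf1 stretch is at chr11:116168004-116168028 (minus strand), with the A at base 163 of the transcript. Itpripl2 is at chr7:118491564-118491588 (minus), Itpkb at chr1:180332218-180332242 (plus), Mbtps1 at chr8:119547700-119547724 (minus) and Eif6 at chr2:155826577-155826601 (minus). Zdhhc5 is at chr2:84710991-84711015 (minus), Nfe2l1 at chr11:96827955-96827979 (minus), Tbc1d4 at chr14:101608564-101608588 (minus), St3gal2 at chr8:110957399-110957423 (plus) and Ulk1 at chr5:110809878-110809902 (minus). All lie in the annotated 5′UTR. The bases on both sides of the motif differed from gene to gene. The A of the Ulk1 motif, in the transcript of a kinase that starts autophagy, lay 8.5, 1 and 4.5 nt upstream of the centre of the imDC, maDC and DCreg peaks, while that of Tbc1d4 lay 59, 62 and 67 nt downstream.

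Every value below is the log2 of IP over input in a peak, each divided by the median window of the same transcript and library. A value of 1 is therefore a doubling over the body of the transcript and not a measure of how much RNA was present, and the lists hold only peaks with a value of at least 1 in both replicates. Fewer cells of a type and less RNA per cell cannot be told apart in such bulk samples, and a transcript too low to test has no peak. By the labels, the first imDC and maDC replicates were made with a TruSeq kit and all other libraries with NEBNext Ultra, and the part of the kit in the values was not tested. The order of the value columns was taken to follow the labels. Of 11 dendritic cell markers 8, 10 and 5 had a peak in imDC, maDC and DCreg, and Batf3 had none in any list. Of 9 spleen endothelial and stromal markers 1, 4 and 4 had one. Col1a1 and Col1a2 had one in DCreg alone, Pecam1 in maDC alone, Eng in imDC and maDC, and Kdr and Vwf in maDC and DCreg. Of 5 macrophage markers 2, 5 and 4 had one. The part of other cells in the DCreg list was not tested. The only one of these 25 markers with a 5′UTR peak away from the cap was Eng, in imDC.

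Peaks inside the 5′UTR made up a smaller share of the list in each later stage. In imDC they were 5.27% of all peaks, with an exact 95% interval of 4.85 to 5.71. In maDC the share was 3.74% (3.46 to 4.03), and the DCreg list had 3.00% (2.72 to 3.31). Cap-proximal 5′UTR peaks, which begin within 50 nt of the annotated end, numbered 667, 630 and 222, and peaks at the start codon 1540, 1929 and 876. All 3 classes were thus a smaller share of the DCreg list than of the imDC list, and in DCreg the peaks away from the cap outnumbered the cap-proximal ones. Each list was called once on both replicates, so these shares have no replicate error, and the intervals cover the counting of peaks only, as the read depth is unknown.

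**Figure D1:**
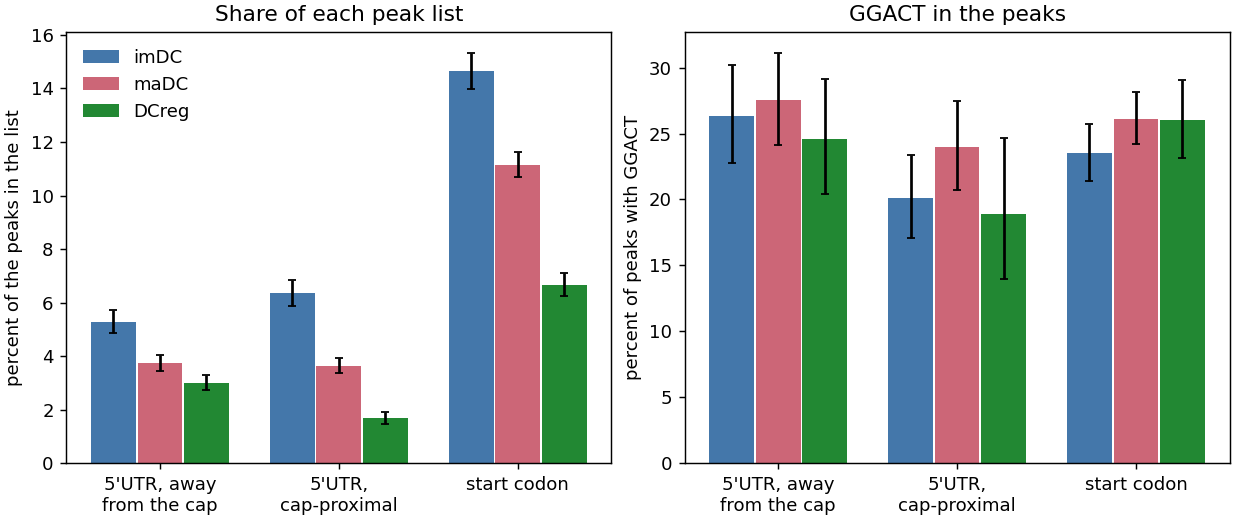
Share of each peak list, in percent, taken by 5′UTR peaks away from the cap, cap-proximal 5′UTR peaks and start codon peaks (left), and percent of the peaks of each class with GGACT (right), for imDC, maDC and DCreg. Bars are shares and lines exact 95% intervals for counting error; the peaks away from the cap fall to 3.00% of the DCreg list, while their GGACT shares lie between 24.6% and 27.5%.

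Between bases 51 and 55 began 35, 36 and 18 peaks in imDC, maDC and DCreg, and between bases 46 and 50 began 27, 40 and 16. The median enrichments in imDC were 1.96 and 2.04 (replicates 1 and 2) just inside and 2.24 and 2.46 just outside, those in maDC 2.13 and 2.04 inside and 2.16 and 2.07 outside, and those in DCreg 2.03 and 1.64 inside and 1.89 and 1.72 outside. Values just inside and just outside base 50 thus lay close together in maDC and DCreg, and the inside values were the lower in imDC.

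The transcripts that carried these peaks had long leaders. The annotated 5′UTR had a median of 497, 508 and 539 nt in imDC, maDC and DCreg, against 183, 177 and 180 nt over all transcripts with a peak in the same list. Since a peak must fit between base 50 and the start codon, the transcripts with a 5′UTR of at least 150 nt are the ones that could hold it. Of these, 14.9% did in imDC (462 of 3109), 13.3% in maDC (530 of 3993) and 9.65% in DCreg (327 of 3388). The longest leader among the transcripts with a checked sequence was that of Flna (filamin A, an actin cross-linker), at 2073 nt.

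The peaks began at a median of 135, 133 and 171 nt from the 5′ end and ended 112, 123.5 and 143.5 nt before the start codon. Their median length was 176.5, 177 and 164 nt. In DCreg fewer of them began close to the cap, with 28.9% at or before base 100, compared with 36.3% in imDC and 38.9% in maDC. The most distal peak of imDC and of maDC lay on Flna, beginning at base 1573 and 1569, and that of DCreg on Runx1, a transcription factor of blood cell development, at base 1337.

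**Figure D2:**
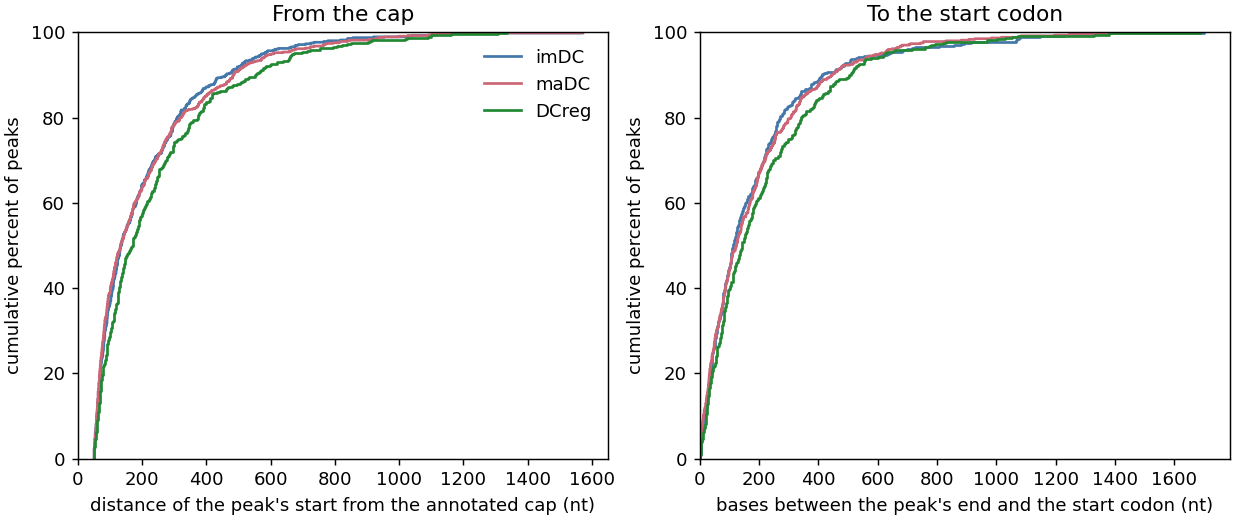
Cumulative percent of 5′UTR peaks away from the cap by the distance of their start from the annotated cap (left, nt) and by the bases between their end and the start codon (right, nt), for imDC, maDC and DCreg. The DCreg curve lies to the right of the others, with medians of 171 nt from the cap and 143.5 nt to the start codon.

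Most of the peaks lay in the first exon, 88.2% in imDC, 86.6% in maDC and 80.6% in DCreg. An exon junction was spanned by 17.2%, 17.6% and 22.7%. Another annotated transcript of the same gene started inside 26.8%, 27.2% and 19.7% of them, and inside or within 50 nt of 37.9%, 37.9% and 29.5%. For these peaks m6Am at another cap and m6A inside the leader cannot be told apart. For the other peaks the part of m6Am at the annotated cap was not tested. Starts of other transcripts were denser in the peaks than in the rest of the same leaders in imDC and sparser in maDC and DCreg, with 2.27 per kb in the imDC peaks and 1.98 outside, 2.04 and 2.40 for maDC, and 1.54 and 1.90 for DCreg. Only 24, 24 and 7 peaks adjoined a cap-proximal peak of the same list.

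Many of the peaks stood alone. In imDC 153 of them (27.6%) were the only peak of their transcript, as were 89 (13.8%) in maDC and 79 in DCreg, while 64, 103 and 55 shared a transcript with a start codon peak. A single peak of this kind was found on 461 of 506 transcripts in imDC, 516 of 578 in maDC and 321 of 354 in DCreg. The most on 1 transcript was 4, on Runx1 in maDC and in DCreg, and 3 were found in imDC on Brd2, Flna and Zmiz1.

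GGACT was denser in the peaks than in the remainder of the leaders they lay in. The peaks held 1.66, 1.73 and 1.73 GGACT per kb in imDC, maDC and DCreg, and the rest of the same 5′UTRs past base 50, outside any peak of the list, 1.16, 0.969 and 1.13 per kb. Of the peaks whose sequence could be checked 25.4%, 27.3% and 24.3% held GGACT. Windows of a like length (177, 177 and 163 nt) were laid end to end past base 50 over the 5′UTRs of all sequence-checked transcripts with a peak in the same list. These windows include the stretches under the peaks, and 20.3%, 20.2% and 17.9% of them held GGACT. Among other classes, the cap-proximal peaks had GGACT in 20.1%, 24.0% and 18.9%, the start codon peaks in 23.5%, 26.1% and 26.03%, and the stop codon peaks in 42.0%, 40.8% and 37.0%. Over all other peaks of each list the share was 31.7%, 33.3% and 28.1%, above that of the 5′UTR peaks away from the cap at every stage. The motif nearest the centre lay within 50 nt of it in 66.4%, 60.7% and 61.9% of the peaks that had one.

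GGAC alone was also denser in the peaks, at 6.78, 7.09 and 7.12 per kb in imDC, maDC and DCreg against 5.24, 4.74 and 5.38 per kb in the rest of the leaders. The wider consensus RRACH (R is a purine, H any base but G) was at 10.7, 12.1 and 14.01 per kb in the imDC, maDC and DCreg peaks and at 12.3, 12.04 and 12.8 per kb in the rest of the leaders, lower in the imDC peaks and higher in the DCreg peaks. ATG triplets were rarer in the peaks, at 4.82, 5.38 and 6.22 per kb against 6.55, 7.08 and 7.02. The peaks were richer in G and C, at 67.7%, 65.2% and 61.3% against 60.5%, 59.9% and 59.8%, and this excess was smallest in DCreg.

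The median values of replicates 1 and 2 were 2.04 and 1.95 in imDC, 1.95 and 1.95 in maDC and 2.31 and 1.78 in DCreg, against 1.85 and 2.03, 1.92 and 2.11, and 2.23 and 1.98 for all other peaks of the same lists. Across the peaks of a list, which share their libraries, Pearson's r between replicates was 0.538 (n = 554), 0.645 (n = 647) and 0.430 (n = 395), and Spearman's rho 0.460, 0.563 and 0.377. Replicate 1 was the higher in 66.6% of the DCreg peaks, 57.8% of the imDC peaks and 49.8% of the maDC peaks. The median distance between replicates was 0.57, 0.41 and 0.67, which is the scale on which differences between stages have to be read.

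Rab5a, the small GTPase of early endosomes, had the strongest peak that was present at all stages. Its values were 5.06 and 4.97 in imDC, 5.16 and 5.07 in maDC and 5.76 and 4.93 in DCreg, in peaks that began at bases 74, 68 and 76 of a 467-nt leader with no GGACT listed in the peak. The DCreg replicates spanned the values of both other stages. Rab14, another GTPase of endosomal traffic, had 5.29 and 4.41 in imDC, 3.79 and 4.43 in maDC and 4.14 and 2.67 in DCreg. Tbc1d4, a GTPase-activating protein for RAB proteins, had 5.56 and 4.41 in imDC, 4.07 and 5.64 in maDC and 4.12 and 2.39 in DCreg. In Rab14 and Tbc1d4 both DCreg values lay below both imDC values, with DCreg minus imDC differences of -1.44 (SE 0.86) and -1.72 (SE 0.87) that did not pass limma (adjusted p = 0.808 and 0.789).

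A 5′UTR peak away from the cap was found in all 3 lists at 148 of the 1007 sites (14.7%). Overlapping cap-proximal and start codon peaks were not counted here, so more sites may be covered at all stages. Fbf1, which encodes a centriole protein, had 3.64 and 4.00 in imDC, 3.92 and 5.10 in maDC and 5.02 and 4.92 in DCreg. Its DCreg values thus lay above both imDC values. Itpripl2 had 6.30 and 3.52 in imDC, 3.50 and 4.86 in maDC and 4.34 and 4.19 in DCreg, where the imDC replicates lay farther apart than the values of the other stages. Itpkb, a kinase that phosphorylates inositol trisphosphate, had 3.73 and 3.48 in imDC, 3.50 and 3.64 in maDC and 3.36 and 3.13 in DCreg. All 6 values thus lay close together, with both DCreg values the lowest. Mbtps1, the site-1 protease that cleaves membrane-bound transcription factors, had 3 GGACT in its peak in every list, and values of 2.99 and 3.88 in imDC, 3.78 and 4.18 in maDC and 3.85 and 3.00 in DCreg. Eif6, a factor that keeps the ribosomal subunits apart, had 2 GGACT and values of 3.58 and 3.01, 3.02 and 2.67, and 3.05 and 3.59 in imDC, maDC and DCreg. Naa50, an amino-terminal acetyltransferase, and Eed, a subunit of the polycomb complex PRC2, had no GGACT and ranged over the 6 values between 3.17 and 4.15 and between 2.87 and 4.19. Cnot6, a deadenylase of the CCR4-NOT complex, ranged between 2.90 and 4.35, with both imDC values the highest and both DCreg values the lowest.

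**Figure D3:**
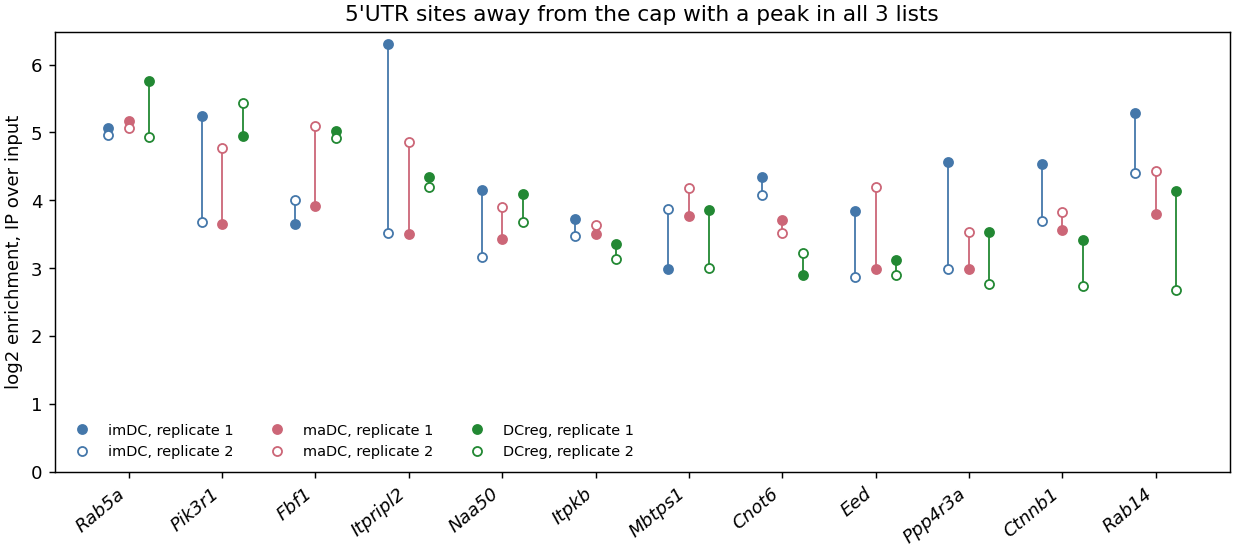
Log2 enrichment of IP over input at the 12 sites with a 5′UTR peak away from the cap in all 3 lists and the highest lowest value, 2 replicates (filled and open points) for imDC, maDC and DCreg, with lines joining the replicates of 1 stage. Rab5a lies highest at 4.93 to 5.76, and only at Cnot6 among these sites do the lines of all 3 stages stand apart.

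Each list had further strong peaks. In imDC they included Picalm (clathrin assembly; 4.57 and 4.34), Ppp4r3b (a subunit of protein phosphatase 4; 4.09 and 4.20), Gnb1 (a G protein beta subunit; 6.11 and 4.02), Kpna4 (an importin alpha; 4.01 and 4.34), Wdr26 (a subunit of a ubiquitin ligase; 5.36 and 3.76) and Ctnnb1 (beta-catenin; 4.54 and 3.69). In maDC Cpeb4, which binds cytoplasmic polyadenylation elements, had 4.57 and 4.73, Xpo1, the exportin for nuclear export signals, 4.19 and 5.02, Naa15, an acetyltransferase subunit, 4.08 and 3.97, and Pde1b, a cyclic nucleotide phosphodiesterase, 4.48 and 3.78. In DCreg Pik3r1, the p85 alpha regulatory subunit of PI3 kinase, held 3 of the 6 strongest peaks. The other strong DCreg peaks were on Runx1, Slc15a3 (a lysosomal peptide transporter; 4.32 and 4.84), Smpd3 (a neutral sphingomyelinase; 4.35 and 4.23) and Fosb (a subunit of AP-1; 5.16 and 4.15).

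Peak borders differed between lists on several of these leaders. The Pik3r1 leader had 1 peak at bases 107 to 578 in imDC (5.24 and 3.69) and 1 at 107 to 591 in maDC (3.64 and 4.77), but 3 in DCreg. These ran from base 112 to 281 (4.94 and 5.43), from 282 to 405 (4.97 and 4.80) and from 419 to 575 (5.40 and 4.60). Most of the stretch was therefore covered in all stages, and why it was divided in DCreg was not tested. Tgfb1, the cytokine TGF-beta 1, was likewise covered from base 63 to 545 by 1 peak in imDC (3.63 and 2.08), by 2 in maDC and by 3 in DCreg, and maDC had a further peak at bases 612 to 729 (1.11 and 1.57). Brd2, a bromodomain reader of acetylated histones, kept peaks near bases 660 and 1025 in all lists, with 2.71 and 2.14 in imDC, 2.31 and 1.90 in maDC and 2.50 and 2.60 in DCreg at the first of these positions.

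Overlap between the lists was unequal. Of the 554 imDC peaks 74.0% had an overlapping peak in maDC and 37.2% in DCreg, against 80.7% and 60.4% of all other imDC peaks. Of the 647 maDC peaks 64.0% had one in imDC and 34.9% in DCreg, against 48.2% and 50.5% of the others. Of the 395 DCreg peaks 63.0% were found in imDC and 70.4% in maDC, against 48.4% and 67.8%. The neighbouring classes were also seldom found in DCreg, with 29.7% of the cap-proximal and 41.1% of the start codon peaks of imDC, and 28.6% and 39.8% of those of maDC. Sites were counted by 5′UTR peaks away from the cap only, leaving out overlapping peaks of other classes. Of the sites, 250 were in maDC alone, 194 in imDC and maDC and 180 in imDC alone. A further 158 were in DCreg alone, 48 in maDC and DCreg and 29 in imDC and DCreg. The overlapping peak was usually of the same class, as for 345 of the 410 imDC peaks found in maDC. Of the others, 27 met a cap-proximal and 38 a start codon peak.

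The overlap was also counted on transcripts common to 2 lists, and the part of transcript level in it was not tested. On transcripts with at least 1 peak in both lists, 44.9% of the imDC peaks (206 of 459) and 43.0% of the maDC peaks (226 of 525) had a counterpart in DCreg, compared with 71.4% and 62.5% of all other imDC and maDC peaks. Between imDC and maDC, 77.1% of the imDC peaks and 75.4% of the maDC peaks were found, against 84.9% and 62.1% of the others. In the reverse direction 75.2% of the DCreg peaks were found in imDC and 77.0% in maDC, against 61.3% and 73.8% of the other DCreg peaks. The difference between these shares was not tested, as each list was called once. The imDC peaks with no counterpart in DCreg had lower values (medians of 1.97 and 1.83 in replicates 1 and 2, n = 253) than those with one (2.54 and 2.18, n = 206), and were richer in G and C (median 73.2% against 64.9%). The part of base composition, kit and depth in the overlap was not tested.

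**Figure D4:**
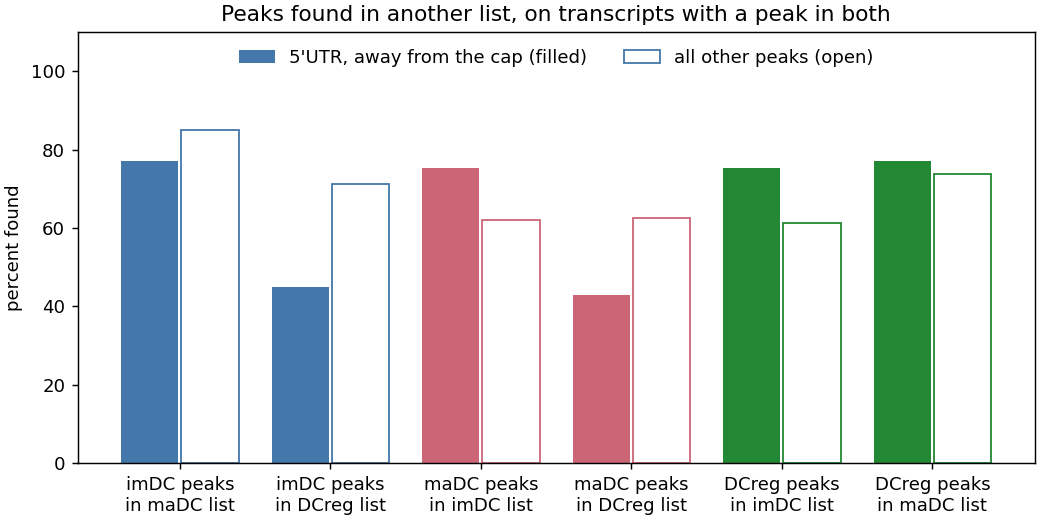
Percent of the peaks of 1 list with an overlapping peak (at least 50% of the shorter) in another list, on transcripts with a peak in both, for 5′UTR peaks away from the cap (filled) and all other peaks (open). Fewer imDC and maDC peaks of this class were found in DCreg (44.9% and 43.0%) than of all other peaks (71.4% and 62.5%).

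Of 345 imDC peaks that were also a 5′UTR peak away from the cap in maDC, 137 had none overlapping in DCreg although the transcript had another DCreg peak, which was at the stop codon or in the 3′UTR for 91 of them. Over the whole DCreg list, 1543 of 6658 transcripts had a stop codon peak and 2699 a 3′UTR peak, some of them both. Whether 91 of 137 exceeds the share over all transcripts was not tested. Nfkb1, which encodes the p50 precursor of NF-κB, had 6.01 and 3.42 in imDC (bases 58 to 234) and 3.34 and 4.18 in maDC (72 to 246), and no 5′UTR peak in DCreg. Its stop codon peak was in all 3 lists, with 1.499 and 2.12 in imDC, 1.89 and 3.01 in maDC and 2.28 and 2.37 in DCreg. Kpna4 had 4.54 and 4.30 in maDC and no 5′UTR peak in DCreg, where its 3′UTR peak at base 1968 had 1.87 and 1.70. Runx2, a transcription factor related to Runx1, had leader peaks of 3.35 and 3.92 and of 2.61 and 2.82 in imDC, and of 3.64 and 4.05 and of 3.19 and 4.22 in maDC. In DCreg only its 3′UTR peak was listed, at 3.79 and 5.21, where imDC had 4.17 and 2.06 and maDC 2.83 and 3.25. Wdr26 lacked both leader peaks in DCreg and had a 3′UTR peak of 3.31 and 3.53. In these 4 transcripts the leader peak was missing from the list while a peak near the 3′ end was not, and a leader value below the authors' threshold cannot be seen in the lists. Dvl1 and Ankib1 also had leader peaks in imDC and maDC, but in DCreg only peaks in the coding sequence.

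The Smpd3 transcript had a peak in the DCreg list and in no other list, at bases 88 to 243 of its 446-nt leader. In Slc15a3 the stretch around the start codon was covered in all lists, as 1 peak each in imDC (257 to 642; 4.80 and 3.21) and maDC (309 to 683; 3.25 and 3.66) and as 3 in DCreg, of which only the first falls in the 5′UTR.

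Differences in enrichment were tested with limma on all peaks shared by 2 lists, with p-values adjusted by Benjamini-Hochberg over all of them. DCreg and maDC shared 8485 peaks, and 22 (0.259%) passed at an adjusted p under 0.05, all higher in DCreg. Of the 197 that were 5′UTR peaks away from the cap in both lists, 1 passed. It lay on Runx1, where DCreg had 4.82 and 5.45 (bases 92 to 247) and maDC 1.83 and 2.77 (bases 92 to 379), a difference of 2.83 (SE 0.73, limma adjusted p = 0.0416). The DCreg values lay above both maDC values, but the maDC peak is wider, so that the 2 values do not cover the same bases. The adjusted p was 0.105 without the intensity trend, 0.477 with the replicate number as a block, 1.00 without maDC replicate 1, 0.473 without maDC replicate 2 and 0.158 without DCreg replicate 2.

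Runx1 had a second stretch of peaks further down its 1576-nt leader, on the minus strand of chromosome 16. At bases 1100 to 1336 DCreg had 3.64 and 2.71, whereas maDC had 2.07 and 3.45 (1102 to 1437) and imDC 1.64 and 3.37 (1113 to 1337). The values of all stages overlapped there. In imDC the first stretch had 2.78 and 1.47 (135 to 509), and DCreg had a further peak at 248 to 504 with 2.98 and 2.77.

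Between maDC and imDC none of 8306 shared peaks passed (0%), and none of the 341 inside the 5′UTR of both, although 294 of all (3.54%) and 14 of the 341 had an unadjusted p under 0.05. The smallest p belonged to Aoah, the enzyme that removes acyl chains from LPS, with 2.47 and 2.43 in maDC and 1.01 and 1.06 in imDC, a difference of 1.41 (SE 0.48, limma adjusted p = 0.982). Both imDC values lay close to the minimum of 1 in the lists. The imDC peak (bases 52 to 170) is also narrower than that of maDC (60 to 218). Jak2, a kinase of cytokine receptors, had 1.27 and 1.00 in maDC and 3.97 and 1.70 in imDC, and Trim8, a ubiquitin ligase, 1.35 and 2.15 in maDC and 4.99 and 2.24 in imDC. In both, imDC replicate 1 was far above replicate 2. When imDC replicate 2 was left out, Jak2, Trim8 and Adnp passed, with 107 peaks over all.

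Between DCreg and imDC none of 6124 shared peaks passed (0%), nor any of the 175 in both sets, with 386 of all (6.30%) and 9 of the 175 at an unadjusted p under 0.05. Aoah again had the smallest p, with 2.54 and 3.29 in DCreg and 1.01 and 1.06 in imDC (difference 1.88, SE 0.59, limma adjusted p = 0.777), on the same imDC libraries as above. The imDC peak, with its values near the minimum, was the same, and the DCreg peak (bases 64 to 219) is again wider. H1f0, a linker histone, had 1.65 and 1.62 in DCreg and 3.75 and 3.05 in imDC, and Fth1, the ferritin heavy chain, 2.25 and 1.02 in DCreg and 3.98 and 2.94 in imDC. Neither passed the adjustment. In DCreg against maDC, 603 of all (7.11%) and 9 of the 197 had an unadjusted p under 0.05.

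Over the shared members as a whole the median difference was -0.02 for maDC minus imDC, 0.02 for DCreg minus maDC and -0.05 for DCreg minus imDC, where the median over all shared peaks was 0.21, 0.03 and 0.31. Positive differences made up 48.1%, 50.3% and 46.9% of the members as deposited, against 65.8%, 52.1% and 69.0% of all shared peaks. With each replicate centred on its median over all shared peaks they made up 24.9%, 50.3% and 25.1% of the members, against 45.1%, 51.1% and 48.0% of all. On replicate means, most members were thus lower in maDC and in DCreg than in imDC relative to the other shared peaks. Of the imDC replicates, only replicate 1 had a member median above that of all shared peaks (2.25 against 1.95 beside maDC, 2.56 against 2.05 beside DCreg). In imDC replicate 2 it lay below (2.11 against 2.18, and 2.12 against 2.22), as in maDC replicate 1 (2.19 against 2.21) and DCreg replicate 1 (2.60 against 2.65). It lay furthest below in maDC replicate 2 (2.14 against 2.45) and DCreg replicate 2 (2.04 against 2.30). The replicates of the stages overlapped on this measure only through imDC replicate 2 and replicate 1 of maDC and DCreg. The replicate values did not overlap for 54 members higher and 52 lower in maDC than in imDC (15.8% and 15.2%, against 23.6% and 7.46% of all shared peaks). For DCreg against maDC there were 35 higher and 32 lower (17.8% and 16.2%, against 21.6% and 14.6%), and for DCreg against imDC 23 higher and 27 lower (13.1% and 15.4%, against 30.2% and 7.17%). The 3 comparisons share samples, and these counts carry no test.

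**Figure D5:**
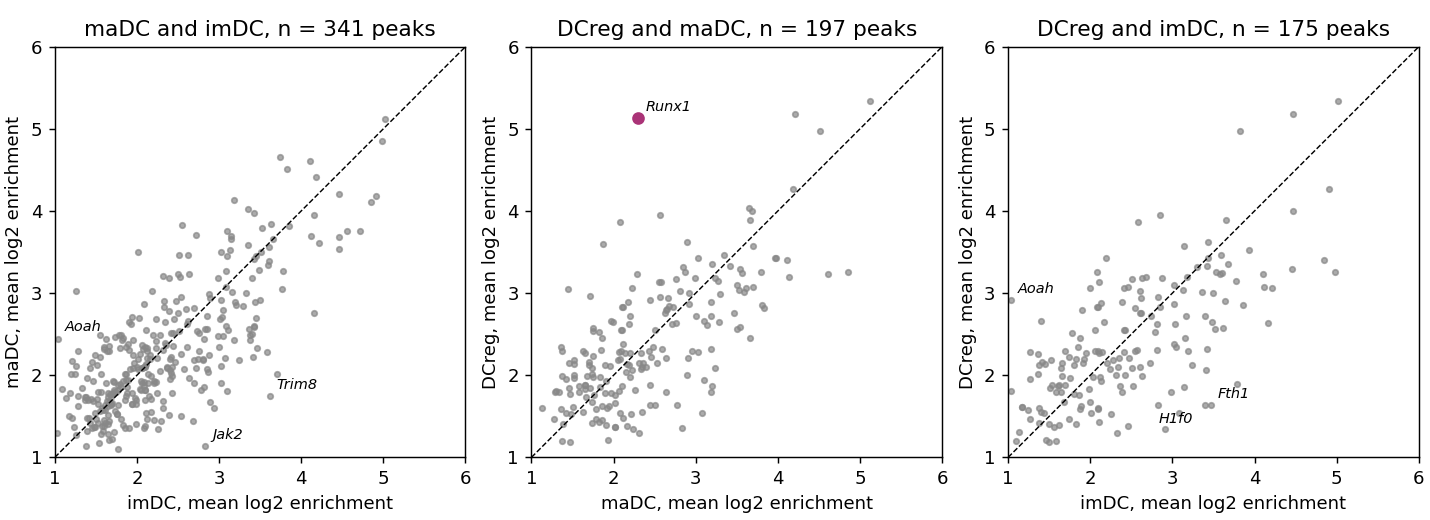
Mean log2 enrichment of the 2 replicates for 5′UTR peaks away from the cap found in both lists, maDC against imDC (341 peaks), DCreg against maDC (197) and DCreg against imDC (175), with the later stage on the vertical axis and the dashed line at equal values. The larger point, Runx1, passed limma at an adjusted p of 0.0416, and the peaks with the smallest p are named where none passed.

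The genes with these peaks were also counted in 15 lists of pathways and complexes. Of the 9140 genes with any peak, 5.54% had one of this kind in imDC, 6.32% in maDC and 3.87% in DCreg. At some stage 9.75% had one. The highest share was in the list named dendritic cell transcription factors, 12 of 47 genes (9, 7 and 7 at the 3 stages). These were Runx1, Runx2, Fosb, Ets2, Etv3, Zeb2, Stat5a, Klf4, Jun, Stat3, Ikzf1 and Elf1. The dendritic cell markers Irf8, Zbtb46 and Ciita had peaks but none of this kind. The lists were chosen with earlier results of these data known. Genes of this list also had long leaders, with a median 5′UTR of 333 nt against 173 nt over all genes. Among genes whose 5′UTR reached 150 nt, 12 of 33 of these factors had one (36.4%), and 18.2% of all. Fosb had 1.81 and 2.57 in imDC, 3.08 and 2.97 in maDC and 5.16 and 4.15 in the first of 2 DCreg peaks (bases 92 to 284). The second DCreg peak (285 to 493), which overlaps the imDC and maDC peaks most, had 4.28 and 2.56, and its range took in both maDC values (DCreg minus maDC 0.40, SE 0.73, limma adjusted p = 0.959). Etv3, an ETS repressor, had 4.01 and 2.48 in imDC, 2.14 and 2.23 in maDC and 2.70 and 1.54 in DCreg. Runx1 and Runx2 were described above.

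Chromatin regulators had 11 of 58 genes with such a peak, and RAB and vesicle genes 9 of 57. Kdm5a, a histone H3 lysine demethylase, had 3.72 and 3.07 in imDC, 3.03 and 3.34 in maDC and 2.86 and 2.58 in DCreg. Hdac5, a histone deacetylase, had 4.07 and 2.30, 2.71 and 2.14, and 3.06 and 1.52 in imDC, maDC and DCreg. Of the vesicle genes Rab7, of late endosomes, had a peak at base 59 in DCreg (2.75 and 2.43) that began at bases 48 and 46 in imDC (2.89 and 2.98) and maDC (2.95 and 1.13), just on the other side of the threshold. Arf4, of Golgi traffic, had one in maDC (2.26 and 3.95) and DCreg (2.65 and 1.22), while its imDC peak began at base 31, next to the cap.

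No gene for antigen presentation and co-stimulation had one, of 37 with a peak elsewhere, nor any of 39 for the mitochondrial ribosome. Both groups have short leaders, with medians of 111 and 49 nt, and only 11 and 5 of their genes had a 5′UTR of 150 nt or more. Of the cytosolic ribosomal proteins 1 of 24 had one, Rpl34 in maDC (3.88 and 1.99). The median leader of that group was 81 nt.

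Of the TLR and NF-κB genes 4 of 48 had one (4 of the 30 with a leader of at least 150 nt, 13.3%). Besides Nfkb1, these were Tab2, an adaptor of the kinase TAK1, with 2.27 and 1.52 in DCreg and 4.65 and 2.92 in imDC, Nfkb2, the p52 precursor, with 1.44 and 1.26 in DCreg and 3.11 and 2.71 in imDC, and Traf3, with 1.09 and 1.53 in maDC and 1.98 and 1.46 in imDC. The DCreg values of Tab2 and Nfkb2 lay below both imDC values, with differences of -1.89 and -1.56 (SE 0.77 and 0.64, limma adjusted p = 0.777 for both), and neither passed.

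Interferon-stimulated genes and IRFs had 7 of 50 (7 of the 23 with a leader of at least 150 nt, 30.4%), among them Usp18, which removes ISG15, in maDC (3.35 and 3.70, against 2.58 and 2.80 in an imDC peak that began at base 26), and splicing factors and RNA-binding proteins 8 of 58. Translation factors had 5 of 44, of which Pabpc1, the cytoplasmic poly(A)-binding protein, had 5.24 and 3.08 in imDC, 2.96 and 2.55 in maDC and 2.89 and 2.39 in DCreg. Ubiquitin genes had 6 of 59 and cytokine genes 5 of 51 (5 of 16 with such a leader, 31.2%). For MAP kinase genes it was 4 of 38, and for heat shock and stress genes 4 of 31. Among the latter Hsph1, a chaperone of the HSP110 family, had a peak of this kind in maDC alone (3.25 and 2.80). Keap1, the sensor of oxidative stress, had one in all 3 lists. Of the m6A machinery 2 of 17 had one, and 1 of the 11 with a checked leader of at least 150 nt (9.09%). With such a leader the share was 16.0% for MAP kinase genes, 18.2% for ubiquitin genes and 22.2% for splicing factors and RNA-binding proteins. It was 22.7% for translation factors, 23.5% for heat shock and stress genes, 24.3% for RAB and vesicle genes and 26.5% for chromatin regulators. Ythdf3, a reader of m6A, had 2.94 and 2.76 in imDC, 2.63 and 2.82 in maDC and 3.29 and 2.36 in DCreg. Alkbh5, an m6A demethylase, had 1.20 and 1.89 in imDC and 2.10 and 2.87 in maDC, and no such peak in DCreg.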

How the data were processed

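The authors deposited, for each DC type, 1 table of peaks, giving for each its RefSeq transcript, first and last base, transcript region, listed GGACT motifs and 2 replicate values of log2 enrichment (IP over input). Per the labels and the methods, TopHat2 2.0.14 placed the reads on mm10, and they were counted in sliding windows on the longest isoform, scaled to the median window of the transcript and tested with edgeR (version not given in the sources used here). Windows had to pass in both replicates and overlapping ones were merged, so peaks were called on both replicates together and the lowest deposited log2 value is 1. Read depth per library is unknown. The lists held 0 other columns of values per sample, and none of the authors' own comparisons.

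Members were 5UTR peaks with a start above 50. Of 9142 transcripts, 9072 were placed in the GRCm38 RefSeq annotation and 8187 passed a sequence check (length and GGACT positions), among them those of 1473 of the 1596 members (92.3%). Sequence, exon and position values use these alone. Starts of other transcripts come from RefSeq and GENCODE.

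Peaks of 2 lists were paired 1 to 1 at an overlap of at least 50% of the shorter and compared with limma 3.58.1 (lmFit, eBayes with trend, no block) in R 4.3.3. The fit was also run on simulated data with the same spread for all peaks and no minimum of 1. The deposited values differ in both, so that run cannot show how the fit performs on them. The replicate columns were taken to follow the labels. Overlaps between lists, shares and exact Clopper-Pearson intervals used Python 3.11.15, pandas 2.3.3, SciPy 1.17.1, NumPy 2.4.6, pyfaidx 0.9.0.4 and matplotlib 3.10.9.

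Named genes are, per list, the 10 members with the highest lower value, up to 10 sites in all lists by their lowest value, members that pass a comparison or else the 3 with the smallest p, up to 4 per gene list, the transcripts with the most members, the most distal or motif-rich ones, and up to 10 with GGACT in every list. Names of the form Gm or Rik were skipped. Members and gene lists were chosen with earlier results of these data known. Sequences on chromosome 18 are not shown.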

Additional observations from a re-analysis of the deposited data

How the results depend on the processing

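Calls among 5′UTR members rested on single libraries and settings. For DCreg minus maDC the 1 member called became 0 with an overlap of 80% of the longer peak, without the trend and with a replicate block, and 0 to 2 when a replicate was left out. Over all shared peaks 22 calls became 11 at the 80% overlap, 0 without the trend, 8 with enrichments of at least 1.5, 1 with the replicate block and 1 to 143 when a replicate was left out, 143 without DCreg replicate 1. The median member difference ranged from -0.35 to 0.25 without 1 replicate. For maDC minus imDC the calls were 0 to 3 among members and 0 to 107 over all without 1 replicate, both highest without imDC replicate 2, and the median became -0.29 after centring. For DCreg minus imDC 2 peaks passed after centring and 0 to 2 without 1 replicate, none a member. Its median member difference of -0.05 became -0.39 after centring and ranged from -0.33 to 0.23 without 1 replicate. Same-numbered replicates did not deviate together (correlations -0.117, -0.040 and -0.345 for maDC against imDC, DCreg against maDC and DCreg against imDC). Whether the numbers pair the samples cannot be told from this, as the column order was only taken to follow the labels. With crossed numbers as the block, chosen after seeing the data, 1 peak and no member passed for maDC minus imDC, and 38 peaks and 1 member for DCreg minus imDC.

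The counts of 554, 647 and 395 members became 353 and 395 in imDC and maDC with a start above 100, 1221, 1277 and 617 with all 5′UTR peaks, and 184, 211 and 130 at an enrichment of at least 2. RRACH was in 80.1%, 84.7% and 86.1% of the imDC, maDC and DCreg members, against 82.8%, 83.6% and 80.3% of the leader windows of like length. In maDC GGACT was in 34.1% of members at 2 or more. Counting only starts of other transcripts inside the peak gave 26.8%, 27.2% and 19.7%. At an overlap of 80% of the longer peak, imDC members were found in maDC and DCreg for 52.2% and 19.5%, maDC members in imDC and DCreg for 44.8% and 18.9%, and DCreg members in imDC and maDC for 29.4% and 33.4%. The median of the lower value in maDC was 1.66 with a start above 100. The cause of these shifts was not tested. Joint calling gives 1 list per stage, unknown depth prevents a detection limit, and values below the threshold are not listed.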
